A study of Mus musculus with 9 samples.

Results

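Heat shock proteins and their J-domain partners are the cell's main protein-folding machinery. They were followed here as a family of 72 protein-coding mouse genes, out of 47729 gene identifiers measured. The family was taken by symbol, as every protein-coding gene that starts with Hspa, Hspb, Hsp90, Hsph, Hspd, Hspe or Dnaj, plus Cryab, without Hspbp1 and Hspbap1. It holds 45 J-domain genes and 27 heat shock protein genes. Of the 72 members, 60 reached at least 1 CPM (reads of a gene scaled to the total of its library) in at least 3 libraries and were tested, among 13695 tested genes in all. The 11 further symbols with these prefixes that are not protein coding were left out, and Hspa14 was not analysed here.

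RNA bound to ribosomes was isolated by the RiboTag method from dorsal striatum, taken from C57BL/6 mice on postnatal day 28. In this method Cre recombinase turns on a hemagglutinin (HA) tag on a ribosomal protein, and tagged polyribosomes are precipitated with beads against HA. Cre was under control of the D1 dopamine receptor gene in all 9 libraries, so the intended source was the D1 medium spiny neuron, the output neuron of the direct striatal pathway, which the labels call enriched. The stereotypy group (3 libraries) came from D1-Cre-flTrkB-RT mice, which carry Cre, the tag and floxed TrkB, the BDNF receptor encoded by Ntrk2, and which showed stereotyped behaviour. The no stereotypy group (3 libraries) came from mice of the same genotype without that behaviour. The control group (3 libraries) came from D1-Cre-RT mice, which carry Cre and the tag but no floxed TrkB. The labels call the libraries of a group biological triplicates and give no sex, no batch and no number of animals per library. Each group with floxed TrkB was compared with control to ask what loss of TrkB changes in D1 neurons, and the groups with floxed TrkB were compared with each other to ask what goes with stereotypy.

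Chaperones of the Hsp70 class hold unfolded stretches of other proteins and release them in a cycle driven by ATP. J-domain proteins (the Dnaj genes) bring clients to Hsp70 and start its ATP hydrolysis, and Hsp110 proteins and Bag proteins exchange the spent nucleotide. Hsp90 takes over clients such as kinases and steroid receptors, small heat shock proteins hold unfolded proteins without ATP, and the chaperonin Hspd1 with its lid Hspe1 folds proteins inside mitochondria. In neurons the constitutive Hsp70, Hspa8, also strips clathrin from synaptic vesicles with the J-domain protein Dnajc6 and protects release proteins with Dnajc5. Heat and misfolded protein activate the transcription factor HSF1, which binds heat shock elements, arrays of the letters GAA and TTC in alternating orientation.

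Total reads were 27103152 to 31117135 in the stereotypy group, 35702420 to 40578512 in the no stereotypy group and 32615356 to 36535817 in controls, so a count of 0 allows at most 0.0739 to 0.111 CPM (3 reads, counting error only). Ntrk2 stood at 34.3, 43.9 and 40.7 CPM in stereotypy libraries and at 23.4, 14.1 and 19.2 CPM in no stereotypy libraries. Controls had 319, 385 and 487 CPM, so both groups with floxed TrkB lay far below control. Ntrk2 was also higher in stereotypy than in no stereotypy, by 1.05 on the log2(CPM + 1) scale (limma adjusted p = 0.0206). The part of this difference in the comparisons between the behaviours was not tested. The 9 D1 neuron markers summed to 2349 to 2446 CPM in stereotypy libraries, 1580 to 1954 CPM in no stereotypy libraries and 1902 to 2576 CPM in controls. RNA of other cells was present too. The 6 cortical excitatory markers summed to 166 to 297, 596 to 1438 and 276 to 852 CPM in the same order of groups, and the 5 D2 neuron markers to 259 to 424, 597 to 1050 and 443 to 1433 CPM. Both sums were highest within their groups in no stereotypy replicate 3 and control replicate 3. No marker of these lists was at 0 in all libraries. No library of unprecipitated RNA was among those analysed, and in such bulk samples fewer cells of a type and less RNA per cell cannot be told apart.

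Heat shock elements in the promoters show which members carry the textbook HSF1 site. Among the 57 members found in the RefSeq promoter table (GRCm38.p6, a window around each start site), 4 held the pattern GAANNTTCNNGAA on either strand, namely Dnajb6, Hspd1, Hspe1 and Hsph1, which is 7.02% of them, against 0.662% of all 27025 genes in the table. The shorter pair GAANNTTC, which lies inside the longer pattern, was found for 24.6% of the members and 9.04% of all genes, and the pair TTCNNGAA, also inside it, for 10.5% and 9.60%. The windows shown are those of Hspe1 (chr1:55087898-55088197, plus strand) and Hsph1 (chr5:149636266-149636565, minus strand), which hold the full pattern, of the heat-inducible Hspa1b (chr17:34959189-34959488, minus strand), which holds 1 GAANNTTC pair, and of Dnajb4 (chr3:152193796-152194095, minus strand, 1 of its 2 windows), the member with the lowest adjusted p between the behaviours. Capitals mark GAA and TTC where they form these patterns.
Hspe1: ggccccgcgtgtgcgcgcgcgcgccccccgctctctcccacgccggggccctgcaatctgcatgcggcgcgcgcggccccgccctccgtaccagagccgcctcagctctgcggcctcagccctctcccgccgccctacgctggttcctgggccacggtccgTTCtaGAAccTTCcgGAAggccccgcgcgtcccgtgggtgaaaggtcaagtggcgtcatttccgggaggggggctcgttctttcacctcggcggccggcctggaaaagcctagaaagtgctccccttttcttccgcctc
Hsph1: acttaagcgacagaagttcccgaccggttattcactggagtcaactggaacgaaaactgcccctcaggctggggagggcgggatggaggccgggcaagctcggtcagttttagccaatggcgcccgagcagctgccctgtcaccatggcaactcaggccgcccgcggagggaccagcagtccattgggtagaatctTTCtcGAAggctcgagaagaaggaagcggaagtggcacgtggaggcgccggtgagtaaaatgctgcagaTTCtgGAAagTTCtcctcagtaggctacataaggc
Hspa1b: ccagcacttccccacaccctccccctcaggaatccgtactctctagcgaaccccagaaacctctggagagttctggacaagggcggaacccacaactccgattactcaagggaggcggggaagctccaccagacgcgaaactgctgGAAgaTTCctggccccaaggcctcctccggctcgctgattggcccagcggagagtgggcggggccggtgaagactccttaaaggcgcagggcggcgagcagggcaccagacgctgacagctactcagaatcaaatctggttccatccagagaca
Dnajb4: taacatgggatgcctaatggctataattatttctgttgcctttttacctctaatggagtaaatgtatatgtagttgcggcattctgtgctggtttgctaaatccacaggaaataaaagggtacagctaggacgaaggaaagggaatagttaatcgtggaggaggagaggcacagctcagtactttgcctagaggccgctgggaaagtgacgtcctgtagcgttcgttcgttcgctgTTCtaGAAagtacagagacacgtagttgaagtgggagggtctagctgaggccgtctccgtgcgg
The windows of Hspe1 and of Hspd1 on the other strand share 285 bases, so the capitals in Hspe1 mark a single array that both genes hold. A match is a description of the letters and does not show that HSF1 binds, and its absence says only that these letters are not in the window. The ER stress element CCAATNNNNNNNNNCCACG was found for 3 members, Dnajc3, Hsp90b1 and Hspa5, or 5.26%, against 0.137% of all genes. The cAMP response element TGACGTCA was found for Dnajc27 alone among the members, 1.75% against 2.03% of all genes. Cryab has no entry in the promoter table.

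Most of the family's RNA came from few genes. The members together held 10416 ± 159 CPM in stereotypy libraries, 10651 ± 397 CPM in no stereotypy libraries and 9986 ± 815 CPM in controls (SD, n = 3 each). The 3 Hsp90 genes made up 39.3% of it, the 13 genes of Hsp70 and Hsp110 type 27.3%, the 28 Dnajc genes 19.6% and the 9 small heat shock protein genes 0.269%. Per kilobase of exon, the cytosolic Hsp90ab1 led with a level of 1029 CPM per kilobase over the 9 libraries, followed by Hsp90aa1 at 155, Hspa8 at 121 and the ER chaperone Hspa5, named outside the rule, at 107 CPM per kilobase. Within the groups the levels of the last pair overlapped, with Hspa8 at 109 ± 20.4 and Hspa5 at 108 ± 11.3 CPM per kilobase in stereotypy libraries and Hspa8 at 116 ± 19.3 and Hspa5 at 105 ± 33.3 in controls (SD, n = 3 each). The most abundant J-domain genes per kilobase were Dnaja2 at 86.3, Dnajc7 at 76.7, Dnajc5 at 67.3 and Dnajc6 at 37.3 CPM per kilobase. Reads of several abundant members could also be drawn to pseudogenes or copies, since 73.2% of the 50-base stretches of the Hspa8 transcript, 58.5% of those of Hsp90aa1 and 62.3% of those of Hspa1b recur in other annotated transcripts.

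Few members were called with TrkB deletion or with behaviour. In stereotypy against control, 1 of 60 members was called (limma on log2(CPM + 1), adjusted over all 13695 tested genes by Benjamini-Hochberg, threshold 0.05). That is 1.67% of the members, against 5.1% of all genes. In no stereotypy against control, 2 members (3.33%) were called against 6.77% of all genes, and in both TrkB-deleted groups together against control, 2 members (3.33%) against 5.72%. In stereotypy against no stereotypy, 5 members (8.33%) were called against 10.2% of all genes. All calls against control were higher, where 3.58%, 3.76% and 3.67% of all genes were called higher and 1.53%, 3.01% and 2.05% lower in stereotypy, no stereotypy and both groups together. Between the behaviours 3 members were called higher and 2 lower in stereotypy, with 6.61% of all genes called higher and 3.6% lower. At an unadjusted p under 0.05 there were 11 members in stereotypy against control (18.3%, against 24.0% of all genes), 9 in no stereotypy against control (15.0% against 22.5%), 9 in both together against control (15.0% against 20.4%) and 12 between the behaviours (20.0% against 29.9%). By edgeR 1, 1, 0 and 3 members were called in that order, where it called 4.70%, 6.60%, 5.32% and 9.75% of all genes. The share of members called lay below that of all genes in each of the 4 comparisons of this fit. With no minimum level that order did not hold in 3 of them, where 1.45%, 2.90% and 5.80% of 69 members were called in stereotypy against control, no stereotypy against control and between the behaviours, against 1.26%, 1.84% and 2.18% of all 26238 genes.

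Members shifted by a median of 0.07 on the log2(CPM + 1) scale in stereotypy against control, where all tested genes had a median of 0.05. The medians in no stereotypy against control were 0.05 for members and 0.03 for all genes, and in stereotypy against no stereotypy −0.00317 and 0.02. The median size of a change regardless of sign was 0.13, 0.12 and 0.15 for members in these 3 comparisons and 0.18, 0.17 and 0.21 for all genes. The 95% interval of the difference stayed within ±0.5 for 43, 36 and 35 of the 60 members (71.7%, 60% and 58.3%), against 46.8%, 48.5% and 42.4% of all genes. Libraries of the groups did not overlap for 11 members in stereotypy against control (18.3%, against 27.7% of all genes), for 14 in no stereotypy against control (23.3% against 25.5%), for 21 in stereotypy against no stereotypy (35% against 38.3%) and for 4 in both groups against control (6.67% against 9.3%). With 3 libraries a group, an exact permutation test of a single gene cannot go below p = 0.1, so the calls rest on the fit across all genes.

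**Figure D1:**
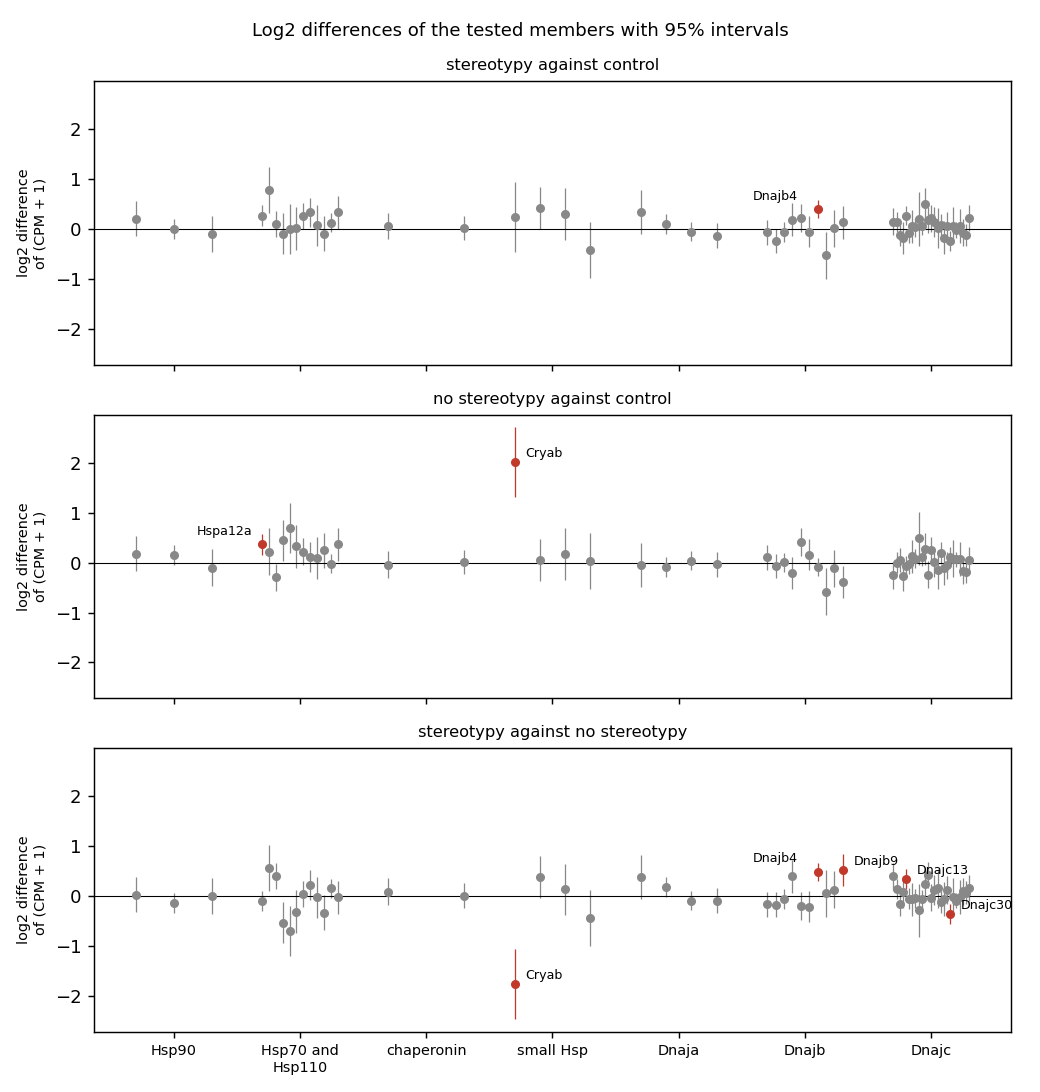
Log2 difference of (CPM + 1) for each of the 60 tested members in stereotypy against control (top), no stereotypy against control (middle) and stereotypy against no stereotypy (bottom), with 95% intervals, grouped along the x axis by class; red points passed adjusted p 0.05. Most points lie close to 0, and Cryab lies far from the others at 2.01 in no stereotypy against control and at −1.76 in stereotypy against no stereotypy.

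The spread within groups was uneven. The median coefficient of variation over the 60 tested members was 7.81% in stereotypy, 6.45% in no stereotypy and 13.8% in control libraries. Control replicate 2 had the lowest value of its group for 29 of the 60 members (48.3%, against 39.3% of all tested genes) and a summed member level of 9051 CPM. It had the highest value of its group for 15 members (25%, against 35.0% of all tested genes). No stereotypy replicate 3 had the highest value of its group for 38 members (63.3%, against 44.0% of all genes).

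**Figure D2:**
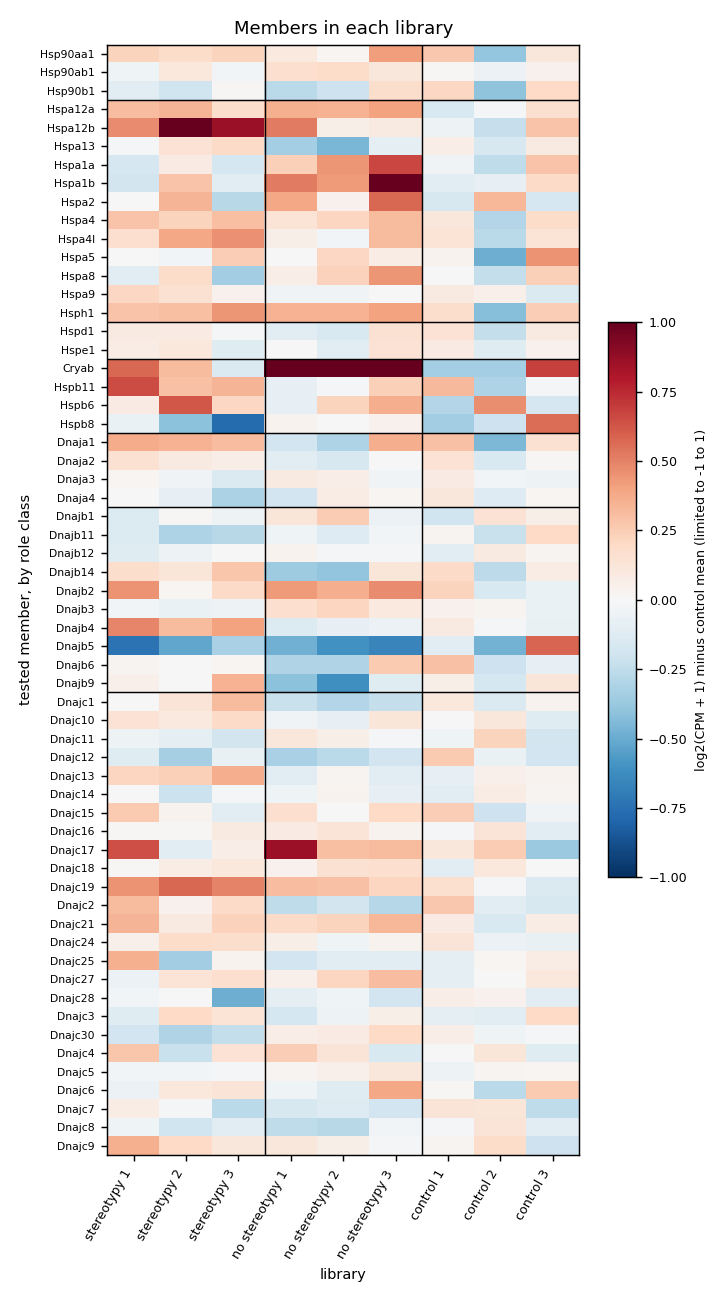
Each tested member (rows, by class) in each of the 9 libraries (columns), as log2(CPM + 1) minus the mean of the 3 control libraries, with the colour scale limited to −1 to 1. Cryab is at the upper limit in all 3 no stereotypy libraries, and Dnajb5 is low in the TrkB-deleted libraries and high in control replicate 3. Control replicate 2 is the lowest control for 29 of the 60 members.

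No Hsp90 gene was called in any comparison. Hsp90ab1, the constitutive cytosolic form and the most abundant member, had 2873, 3193 and 2903 CPM in stereotypy libraries, 3332, 3369 and 3205 CPM in no stereotypy libraries, and 2990, 2852 and 3053 CPM in controls. The no stereotypy libraries lay above the other 6 without overlap, but the difference from control, 0.16 ± 0.09 (log2, SE), had an adjusted p of 0.349. Hsp90aa1, the stress-inducible cytosolic form, had 646, 627 and 646 CPM in stereotypy libraries, 592, 559 and 739 CPM in no stereotypy libraries and 669, 423 and 599 CPM in controls. These groups overlapped, and the interval of the difference between stereotypy and no stereotypy ran from −0.32 to 0.38. Hsp90b1, the ER form, named outside the rule, averaged 357 ± 26.1 CPM in stereotypy, 360 ± 63.2 CPM in no stereotypy and 389 ± 87.5 CPM in control libraries (SD, n = 3 each).

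Among the 12 tested genes of Hsp70 and Hsp110 type, Hspa12a was the one called. Hspa12a encodes a distant, brain-rich relative of Hsp70. It had 204, 209 and 186 CPM in stereotypy libraries and 211, 209 and 218 CPM in no stereotypy libraries, against 148, 164 and 184 CPM in controls. Every library with floxed TrkB lay above every control library. Hspa12a rose by 0.37 ± 0.09 (log2, SE) in no stereotypy against control (limma adjusted p = 0.0401) and by 0.32 in both TrkB-deleted groups against control (limma adjusted p = 0.0432). Stereotypy against control gave 0.27 ± 0.09 with a limma adjusted p of 0.108. The call against control in the no stereotypy group was lost in 11 of 17 alternatives, among them median-of-ratios rescaling (adjusted p = 0.0527) and edgeR (0.0674), while the difference stayed between 0.29 and 0.45. That of both groups together was lost in 11 of 16. Exons of Hspa12a overlap those of Eno4 on the other strand, and the use of strand in counting is not given in the sources used here.

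No other abundant gene of this class was called. Hspa8 had 461, 563 and 388 CPM in stereotypy libraries, 517, 582 and 671 CPM in no stereotypy libraries and 494, 419 and 585 CPM in controls, with overlap between all groups. Hsph1, the main Hsp110 nucleotide exchange factor, had 539, 543 and 601 CPM in stereotypy libraries and 563, 564 and 584 CPM in no stereotypy libraries, against 501, 329 and 525 CPM in controls. All 6 libraries with floxed TrkB exceeded all controls for Hsph1, yet the differences of 0.34 and 0.37 had limma adjusted p-values of 0.195 (stereotypy against control) and 0.179 (no stereotypy against control). The lowest control was replicate 2, which had the lowest control value for 29 of the 60 tested members and the highest for 15. Hspa4l, a second Hsp110 gene, averaged 196 ± 20.3 CPM in stereotypy libraries, 168 ± 21.4 CPM in no stereotypy libraries and 156 ± 24.3 CPM in controls (SD, n = 3 each; limma adjusted p = 0.16 for stereotypy against control).

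The low-level Hsp70 genes had the widest swings of the class. Hspa12b, known from endothelial cells, had 1.83, 3.12 and 2.69 CPM in stereotypy libraries, 1.91, 1.12 and 1.16 CPM in no stereotypy libraries and 0.958, 0.736 and 1.47 CPM in controls. The stereotypy libraries lay above all controls, with a difference of 0.79 ± 0.21 and a limma adjusted p of 0.0583. The 11 vascular markers summed to 38.7, 92.7 and 36.7 CPM in stereotypy libraries, 28.4, 15.9 and 20.8 CPM in no stereotypy libraries and 41.7, 20.1 and 43.9 CPM in controls. Both Hspa12b and this sum were highest in stereotypy replicate 2, and the part of vascular RNA in the Hspa12b level was not tested. In controls much of the sum was the smooth muscle gene Tagln, named after its values were seen. Tagln had 2.22, 2.02 and 1.22 CPM in stereotypy libraries, 1.42, 1.48 and 1.70 CPM in no stereotypy libraries and 13.7, 9.59 and 28.3 CPM in controls. Without it the vascular sum was 36.5, 90.7 and 35.5 CPM in stereotypy libraries, 27.0, 14.5 and 19.0 CPM in no stereotypy libraries and 28.1, 10.5 and 15.6 CPM in controls, so each stereotypy library exceeded all 6 others. Of the 10 vascular markers tested in stereotypy against control, 1 was called higher and 1 lower, all 10 had an unadjusted limma p under 0.05, and the median difference was 1.09. Of all genes 3.58% were called higher, 1.53% lower and 24.0% had such a p, with a median of 0.05.

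Heat-inducible Hsp70 was low in all groups. Hspa1b had 0.644, 1.29 and 0.738 CPM in stereotypy libraries, 1.68, 1.51 and 3.18 CPM in no stereotypy libraries and 0.739, 0.764 and 1.13 CPM in controls. The no stereotypy libraries lay above the other 6, with a difference from control of 0.70 ± 0.23 (limma adjusted p = 0.0956) and of stereotypy from no stereotypy of −0.70 ± 0.23 (limma adjusted p = 0.0709). Its near-copy Hspa1a had 1.97, 2.54 and 1.96 CPM in stereotypy libraries, 2.95, 3.53 and 4.31 CPM in no stereotypy libraries and 2.27, 1.81 and 3.07 CPM in controls (limma adjusted p = 0.0866 for stereotypy against no stereotypy). The pair share most of their sequence, so reads could be exchanged between them, and neither passed the threshold in any comparison.

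**Figure D3:**
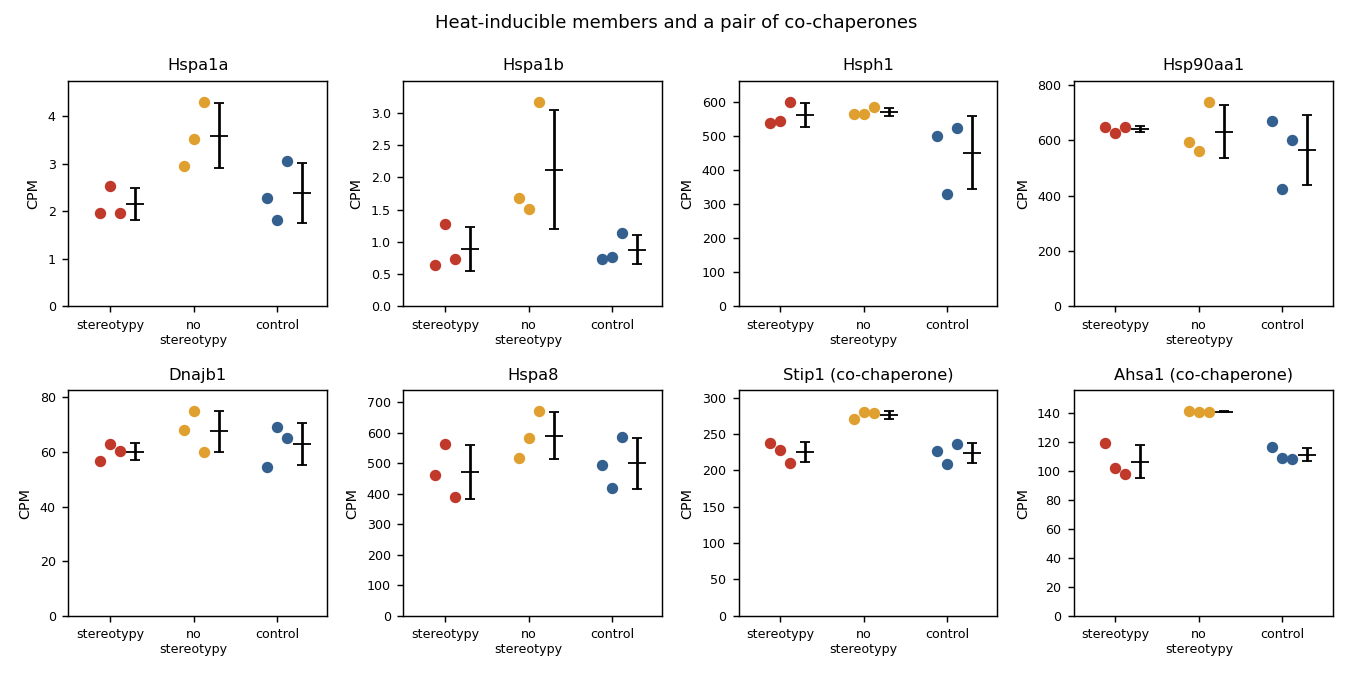
CPM per library (points) with mean and SD (bars, n = 3) for 6 members that heat induces or that make up the constitutive Hsp70 and Hsp90 system, and for the co-chaperones Stip1 and Ahsa1. Hspa1a and Hspa1b have their highest means in the no stereotypy group but did not pass the threshold, and for Hspa1a that group overlaps control. Stip1 and Ahsa1 stand in a tight band in the no stereotypy libraries, above the other 6, and did pass.

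A list of 19 textbook HSF1 target genes, of which 18 were tested, was read beside the family. The list holds 12 members of the family and 7 genes outside it. No gene of the list was called in stereotypy against control or in both groups against control. In no stereotypy against control 2 were higher and 16 did not pass, with 3.76% of all genes called higher. In stereotypy against no stereotypy 2 were lower and 16 did not pass, with 3.6% of all genes called lower. The same genes, Stip1 and Ahsa1, made both counts, and neither is a heat shock protein. The list's median difference was 0.14 in no stereotypy against control and −0.15 in stereotypy against no stereotypy, where all genes had 0.03 and 0.02. An unadjusted limma p under 0.05 was found for 7 of the 18 in no stereotypy against control, against 22.5% of all genes. Such a p was found for 3 in stereotypy against control and 5 between the behaviours, against 24.0% and 29.9% of all genes. Hsf1 itself had 19.6, 16.8 and 17.3 CPM in stereotypy libraries, 30.6, 25.3 and 21.2 CPM in no stereotypy libraries and 20.0, 17.5 and 23.4 CPM in controls, with a limma adjusted p of 0.0627 in stereotypy against no stereotypy. None of the 4 tested genes of the HSF list, which are the factors Hsf1, Hsf2 and Hsf4 and the regulator Hsbp1, passed in any comparison.

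The mitochondrial chaperonin was not called in any comparison. Hspd1 averaged 85.2 ± 3.35 CPM in stereotypy, 80.2 ± 9.47 CPM in no stereotypy and 82.5 ± 11.4 CPM in control libraries, and Hspe1 averaged 31.7 ± 2.73, 31.5 ± 2.90 and 31.2 ± 2.42 CPM (SD, n = 3 each). The interval of the stereotypy against control difference ran from −0.21 to 0.32 for Hspd1 and from −0.23 to 0.27 for Hspe1. Hspd1 and Hspe1 overlap on opposite strands at their first exons, where counts without strand could not be told apart. None of the 9 mitochondrial folding and protease genes outside the family, such as the protease subunit Afg3l2, passed in any comparison, with a list median of 0.07 in stereotypy against control, where all genes had 0.05.

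Cryab had the largest difference of the family in any comparison. It encodes the small heat shock protein alpha-B-crystallin, which in brain is known from oligodendrocytes and astrocytes, and it lies on chromosome 9 (GRCm38, chr9:50751325-50756636, plus strand). Cryab had 13.4, 11.1 and 7.75 CPM in stereotypy libraries and 29.4, 32.5 and 57.4 CPM in no stereotypy libraries, against 6.62, 6.65 and 14.5 CPM in controls. The 3 no stereotypy libraries lay above all 6 others, and the stereotypy and control libraries overlapped. Cryab rose by 2.01 ± 0.32 (log2, SE) in no stereotypy against control (limma adjusted p = 0.00536), and the mean CPM ratio was 4.30. This call held in all 17 alternatives, with differences of 1.72 to 2.35 and adjusted p-values of 0.00172 to 0.0282. Stereotypy against no stereotypy gave −1.76 ± 0.32 (limma adjusted p = 0.0206), and stereotypy against control 0.25, with an interval from −0.45 to 0.95. Both groups together against control gave 1.13 (limma adjusted p = 0.0385), a call lost in 7 of 16 alternatives. The difference between the behaviours lost its call when 1 of stereotypy replicates 2 and 3 or no stereotypy replicates 1 and 2 was left out, with adjusted p-values of 0.0611 to 0.0827, and in these fits at most 0.0073% of all genes were called.

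Marker RNA of other cells moved with Cryab in part. The cortical excitatory sum was 297, 272 and 166 CPM in stereotypy libraries, 635, 596 and 1438 CPM in no stereotypy libraries and 468, 276 and 852 CPM in controls. The library with the highest Cryab level of each group was also the one with the highest cortical sum of that group. Against control in the no stereotypy group, 1 of the 6 cortical markers was called higher, where 3.76% of all genes were. The most abundant gene of that list, the vesicular glutamate transporter Slc17a7, differed by 0.83 ± 0.41 with a limma adjusted p of 0.263. The list's median there was 0.52, where all genes had 0.03. In stereotypy against no stereotypy 1 of the 6 was called lower, where 3.6% of all genes were. An unadjusted limma p under 0.05 was found for 5 of the 6, against 29.9% of all genes. The list's median between the behaviours was −1.28, where all genes had 0.02. The 12 oligodendrocyte markers summed to 2185, 1290 and 1227 CPM in stereotypy libraries, 1218, 788 and 1809 CPM in no stereotypy libraries and 596, 929 and 1256 CPM in controls. This sum, too, was highest within each group in the library with the highest Cryab level of that group. No gene of that list was called in no stereotypy against control or in stereotypy against no stereotypy, and each stereotypy library exceeded 2 of the 3 no stereotypy libraries in its sum. The 12 astrocyte markers summed to 645 to 673 CPM in stereotypy, 452 to 567 CPM in no stereotypy and 454 to 561 CPM in control libraries. Of these 12 astrocyte markers, 1 was called higher in no stereotypy against control, where 3.76% of all genes were. An unadjusted limma p under 0.05 was found there for 6 of the 12, against 22.5% of all genes. The median difference was 0.39, where all genes had 0.03. In stereotypy against no stereotypy 3 were called higher, where 6.61% of all genes were, with a median of 0.50. The part of these cells in the Cryab level was not tested.

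**Figure D4:**
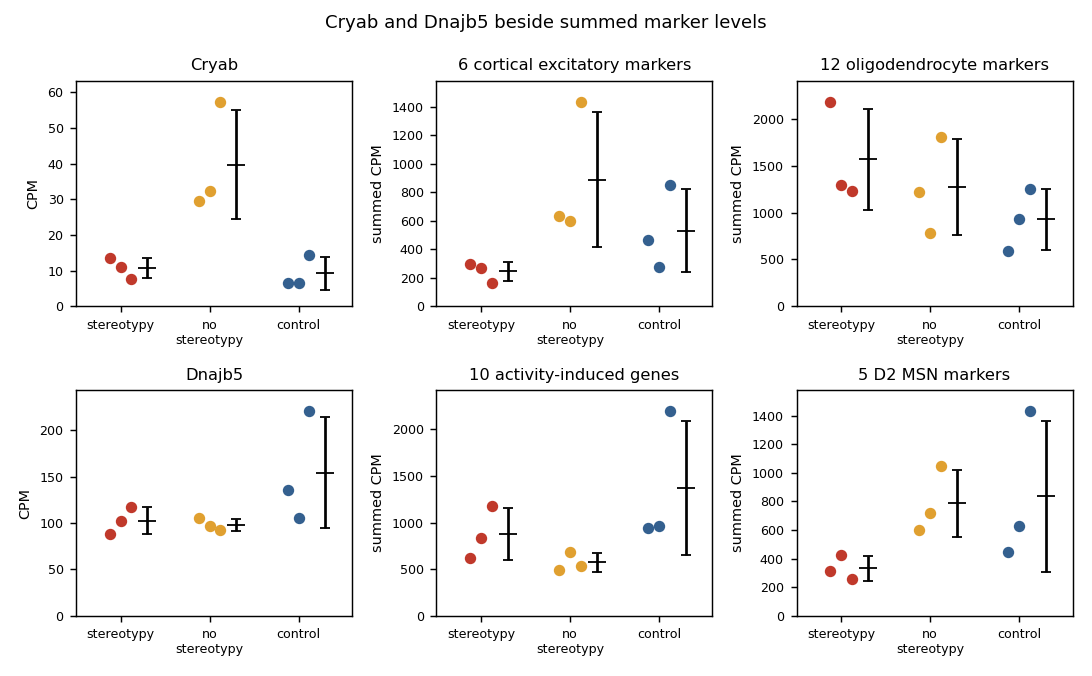
Cryab and Dnajb5 in CPM per library beside summed CPM of 6 cortical excitatory, 12 oligodendrocyte and 5 D2 neuron markers and of 10 activity-induced genes; points are libraries and bars are mean and SD (n = 3). Cryab is high in all 3 no stereotypy libraries and highest in replicate 3, which also has the highest cortical sum at 1438 CPM, and Dnajb5 and the activity-induced genes share their highest library, control replicate 3.

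Hspb2, a small heat shock protein known from muscle, is the neighbour of Cryab on the opposite strand, and their exons overlap. It did not reach the minimum for testing. It had 0.358, 0.161 and 0 CPM in stereotypy libraries and 0.801, 1.26 and 1.97 CPM in no stereotypy libraries, against 0.109, 0.141 and 0.215 CPM in controls. As for Cryab, the no stereotypy libraries lay above the other 6. In a fit with no minimum level it was called in no stereotypy against control (0.99, limma adjusted p = 0.0306) and in stereotypy against no stereotypy (−0.98, limma adjusted p = 0.0390). Without strand, reads in the shared exon could not be assigned to either gene.

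The other small heat shock proteins were low. Hspb11, a subunit of the transport machinery of cilia, had 6.41, 4.79 and 4.98 CPM in stereotypy libraries, 3.46, 3.67 and 4.56 CPM in no stereotypy libraries and 4.90, 2.80 and 3.68 CPM in controls. Hspb8, which works with Bag3 in disposal of damaged proteins, had 1.04, 0.611 and 0.258 CPM in stereotypy libraries, 1.19, 1.15 and 1.21 CPM in no stereotypy libraries and 0.684, 0.849 and 2.15 CPM in controls. Neither passed, and for Hspb8 the limma adjusted p of stereotypy against no stereotypy was 0.268. Hspb1, the best known small heat shock protein of stressed cells, stayed between 0 and 0.337 CPM in all 9 libraries and was not tested.

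Among J-domain genes, Dnajb4 was the one called higher in stereotypy against both other groups. It encodes a cytosolic partner of Hsp70 of the Dnajb type and spans chr3:152178511-152210302 (GRCm38, minus strand). Dnajb4 had 204, 180 and 192 CPM in stereotypy libraries, 132, 137 and 139 CPM in no stereotypy libraries and 154, 144 and 137 CPM in controls. The stereotypy libraries lay above the other 6 without overlap. Dnajb4 rose by 0.40 ± 0.08 (log2, SE) in stereotypy against control (limma adjusted p = 0.0248) and by 0.49 ± 0.08 in stereotypy against no stereotypy (limma adjusted p = 0.0175), while no stereotypy against control gave −0.09, with an interval from −0.27 to 0.09. Its longest protein-coding transcript (2464 bases) shared no 50-base stretch with other annotated genes, and the rest of its 8765 bases of exon was not checked. The exons of Dnajb4 overlap no other gene. The call against control was lost in 6 of 17 alternatives, with adjusted p-values up to 0.0732, and that between the behaviours in 4, with adjusted p-values up to 0.0750. These were fits without 1 or 2 libraries or with the 6 compared libraries only, and the differences kept a range of 0.33 to 0.45 and of 0.45 to 0.54. Markers of medium spiny neurons moved in the same direction between the behaviours. Of 9 markers of the D1 type, 2 were called higher in stereotypy, with a median difference of 0.49. Of 8 markers of medium spiny neurons in general 4 were called higher, with a median of 0.23. Of all genes 6.61% were called higher, with a median of 0.02. In stereotypy against control, where Dnajb4 was also called, no marker of either list was called higher and 1 of the 8 was called lower. The medians there were 0.18 and 0.07, where all genes had 0.05. Among the 12 astrocyte markers, 6 were called higher and none lower in stereotypy against control, with a median of 0.77. Between the behaviours 3 of them were called higher and none lower, with a median of 0.50. The shares of all genes called higher were 3.58% and 6.61% in these comparisons. The part of these neurons and of astrocytes in the Dnajb4 level was not tested.

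**Figure D5:**
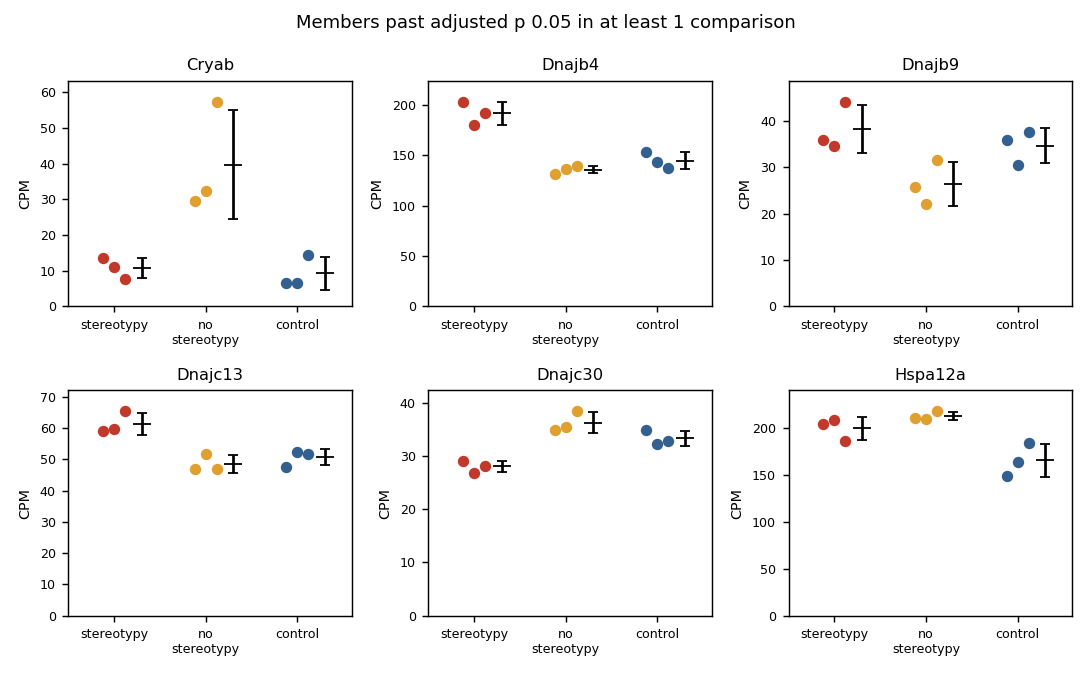
CPM per library (points) with mean and SD (bars, n = 3) for the 6 members that passed adjusted p 0.05 in at least 1 comparison. Dnajb4 is at 180 to 204 CPM in stereotypy libraries and at 132 to 154 CPM in the other 6, and Cryab is at 29.4 to 57.4 CPM in no stereotypy libraries and at 6.62 to 14.5 CPM in the other 6.

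The remaining calls between the behaviours were small. Dnajb9, an ER J-domain protein induced by the unfolded protein response, had 35.9, 34.6 and 44.2 CPM in stereotypy libraries, against 25.7, 22.2 and 31.6 CPM in no stereotypy libraries, with 35.9, 30.4 and 37.7 CPM in controls. It was higher in stereotypy than in no stereotypy by 0.52 ± 0.15 (limma adjusted p = 0.0495), and this call was lost in 10 of 17 alternatives. Dnajc13, which acts in endosomal sorting, had 59.0, 59.8 and 65.5 CPM in stereotypy libraries, against 46.8, 51.7 and 46.9 CPM in no stereotypy libraries, with 47.7, 52.4 and 51.8 CPM in controls. Its stereotypy libraries lay above the other 6, and the difference between the behaviours was 0.34 ± 0.09 (limma adjusted p = 0.0422, lost in 10 of 17 alternatives). Dnajc30, a mitochondrial J-domain protein, had 29.0, 26.9 and 28.2 CPM in stereotypy libraries, against 34.9, 35.4 and 38.4 CPM in no stereotypy libraries, with 35.0, 32.3 and 32.8 CPM in controls. Here the stereotypy libraries lay below the other 6, with a difference of −0.36 ± 0.09 between the behaviours (limma adjusted p = 0.0372, lost in 7 of 17 alternatives). Exons of Dnajc30 overlap Bud23 on the other strand.

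Just short of the threshold between the behaviours, and named after their values were seen, were the ribosome-bound Dnajc2 (0.42, adjusted p = 0.0507), the ER-associated Hspa13 (0.41, adjusted p = 0.0563) and the ER membrane protein Dnajc1 (0.40, adjusted p = 0.0629), all by limma. Each was higher in all 3 stereotypy than in all 3 no stereotypy libraries, as in Hspa13 with 43.0, 47.9 and 49.6 CPM in stereotypy libraries against 34.0, 31.2 and 40.5 CPM in no stereotypy libraries. The ER membrane protein Dnajb14 averaged 165 ± 9.31 CPM in stereotypy libraries, against 127 ± 26.8 CPM in no stereotypy libraries (SD, n = 3 each), with a limma adjusted p of 0.105. No stereotypy replicate 3 lay at the level of the stereotypy libraries in Dnajb14, and without it the adjusted p was 0.0323. Of 19 ER folding and unfolded protein response genes outside the family, 1 was called in any comparison. This was Syvn1, an ER ubiquitin ligase, which was lower in stereotypy than in no stereotypy by −0.32 (limma adjusted p = 0.0481). The list's median there was −0.03, where all genes had 0.02.

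Dnajb5 had the largest negative differences from control in the family, but they did not pass. Dnajb5 encodes a cytosolic partner of Hsp70 that in mouse heart binds a class II histone deacetylase. It had 87.9, 102 and 117 CPM in stereotypy libraries and 105, 96.5 and 92.8 CPM in no stereotypy libraries, against 136, 106 and 221 CPM in controls. The no stereotypy libraries lay below all controls, and the stereotypy libraries overlapped them. The differences were −0.53 ± 0.22 in stereotypy and −0.58 ± 0.22 in no stereotypy against control, with limma adjusted p-values of 0.166 and 0.142. Without control replicate 2, the lowest of the controls, no stereotypy against control gave −0.82 with an adjusted p of 0.0295. Over all 17 alternatives this difference ran from −0.82 to −0.25, with adjusted p-values of 0.0295 to 0.373, and only that fit gave a call. The 10 activity-induced genes, such as Fos and Arc, summed to 617, 834 and 1176 CPM in stereotypy libraries, 496, 689 and 537 CPM in no stereotypy libraries and 940, 966 and 2197 CPM in controls. Their sum and Dnajb5 were both highest of all libraries in control replicate 3. In no stereotypy against control 5 of the 10 genes were called lower, where 3.01% of all genes were. In stereotypy against control no gene of the list was called. The list's median was −1.08 in no stereotypy and −0.42 in stereotypy against control, where all genes had 0.03 and 0.05. The part of neuronal activity in the Dnajb5 level was not tested.

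The major cytosolic J-domain genes showed no call. Dnaja1, the best known class A partner of Hsp70, had 145, 143 and 139 CPM in stereotypy libraries, 97.8, 90.0 and 144 CPM in no stereotypy libraries and 137, 81.7 and 124 CPM in controls (limma adjusted p = 0.313 for stereotypy against control). Dnaja2 averaged 274 ± 8.47 CPM in stereotypy, 240 ± 12.7 CPM in no stereotypy and 256 ± 26.4 CPM in control libraries, and Dnajb1, the heat-inducible Hsp40, 59.99 ± 3.12, 67.6 ± 7.45 and 62.8 ± 7.64 CPM in the same order (SD, n = 3 each). In Dnaja1, no stereotypy replicate 3 stood at the level of the stereotypy libraries, and control replicate 2 was the lowest of all 9.

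The J-domain genes of the synapse were not called in any comparison. Dnajc5, the cysteine string protein of synaptic vesicles, had 455, 456 and 456 CPM in stereotypy libraries, 472, 480 and 502 CPM in no stereotypy libraries and 448, 473 and 470 CPM in controls, and the interval of the stereotypy against control difference ran from −0.18 to 0.13. Dnajc6, the auxilin that uncoats clathrin vesicles with Hspa8, named outside the rule, averaged 221 ± 15.8, 226 ± 45.4 and 214 ± 39.2 CPM in stereotypy, no stereotypy and control libraries (SD, n = 3 each). Dnajc7, which links Hsp70 to Hsp90, averaged 375 ± 45.2 CPM in stereotypy, 350 ± 7.65 CPM in no stereotypy and 394 ± 57.3 CPM in control libraries, and its exons overlap the oligodendrocyte gene Cnp on the other strand. Dnajc12, a partner of the enzymes that hydroxylate aromatic amino acids, averaged 12.02 ± 1.21, 11.2 ± 0.581 and 13.8 ± 2.45 CPM in the same order. Dnajc19, part of the motor that imports proteins into mitochondria, was low but ordered, at 4.05, 4.50 and 4.21 CPM in stereotypy libraries, 3.57, 3.53 and 3.28 CPM in no stereotypy libraries and 3.12, 2.66 and 2.33 CPM in controls. Its groups did not overlap in any of the 3 comparisons, yet the stereotypy against control difference of 0.51 ± 0.14 had a limma adjusted p of 0.0653. Its exons overlap Fxr1 on the other strand. Over all 25 tested Dnajc genes, 1 was called higher, 1 lower and 23 did not pass between the behaviours, where 6.61% of all genes were called higher and 3.6% lower, and none was called in either group against control.

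Between the behaviours, 4 of 16 co-chaperones of Hsp70 outside the family and 4 of 17 of Hsp90 were called, with 10.2% of all genes called there. In no stereotypy against control 2 of 16 and 1 of 17 were called, with 6.77% of all genes called. Of 16 genes that assist Hsp70, Bag1 (0.35 ± 0.09) and Stip1 (0.31 ± 0.08) were higher in no stereotypy against control, with limma adjusted p-values of 0.0449 and 0.0482. In stereotypy against no stereotypy, Bag4 was higher by 0.42 (limma adjusted p = 0.0395), and Hspbp1 (−0.48), Sgta (−0.43) and Stip1 (−0.30) were lower, with limma adjusted p-values of 0.0231 to 0.0441, while 12 did not pass. The list's median was 0.12 in no stereotypy against control and −0.16 between the behaviours, where all genes had 0.03 and 0.02. Stip1, which carries clients from Hsp70 to Hsp90, had 237, 227 and 210 CPM in stereotypy libraries, 270, 281 and 278 CPM in no stereotypy libraries and 226, 209 and 236 CPM in controls, so its no stereotypy libraries lay above the other 6. Of 17 tested co-chaperones of Hsp90, the ATPase activator Ahsa1 was higher in no stereotypy against control (0.34, limma adjusted p = 0.0481). Ahsa1 had 119, 101 and 97.8 CPM in stereotypy libraries, 141, 140 and 140 CPM in no stereotypy libraries and 116, 109 and 108 CPM in controls. Lower in stereotypy than in no stereotypy were 4 of the 17, namely Ahsa1 (−0.41), Tomm34 (−0.38) and, outside the naming rule, Ppp5c (−0.37) and Fkbp8 (−0.34), with limma adjusted p-values of 0.0258 to 0.0450, and the list's median there was −0.05. Of 14 subunits of the cytosolic chaperonin TRiC and prefoldin, Vbp1 alone was called, at 0.50 higher in stereotypy than in no stereotypy (limma adjusted p = 0.0490), where the list's median was −0.06. In stereotypy against control no gene of these lists was called.

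Of the 12 members below the test minimum, Dnajc22, Dnajc5b and Dnajc5g had no read in any library, which allows at most 0.0739 to 0.111 CPM. Dnajb7, Dnajb8, Dnajb13, Hspb7 and Hspb9, several of them known from testis or heart, stayed at or below 0.143 CPM. Hspa1l, Hspb1 and Hspb3 reached at most 0.337, 0.337 and 0.280 CPM, and Hspb2 was the highest at 1.97 CPM.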

How the data were processed

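RNA precipitated with tagged ribosomes was sequenced in 9 libraries (NEBNext Ultra kit, per the labels' protocols). Each library has its own table of CPM values made by the authors, for which reads were aligned with TopHat to GRCm38, per the submitters' processing notes. The program that counted reads, its gene annotation and its strand setting were not given in the sources used here. Of the CPM values of each library, 100% were whole multiples of 1 read within 0.1 reads, so whole reads were recovered. Symbols came from GENCODE M21, with 47310 of 47729 identifiers matched (99.12%) and 419 not matched, which hold no more than 0.0632% of a library's reads.

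The 13695 genes that reached 1 CPM in 3 or more libraries entered a single limma fit with a variance trend (limma 3.58.1, R 4.3.3) on log2(CPM + 1), a scale that shrinks the differences of low genes. The fit held all 9 libraries with a mean per group, and adjustment (Benjamini-Hochberg) ran over all genes of a comparison, with a threshold of 0.05. The members and lists were chosen with earlier results of these data known. Members with values in the text are those past the threshold, the 2 most abundant of each class, the 2 largest differences in each direction per comparison and HSF1 target genes, with at most 2 genes per direction of each other list; exceptions, among them Hspa5, Hsp90b1, Dnajc6 and members below the minimum level, were named after their values were seen. Fold differences of comparisons that share controls are not independent. The libraries are called biological triplicates; nothing else says how they relate, so p-values measure the spread between these libraries.

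On reads simulated for stereotypy against control over the same 13695 genes, the fit recovered 29.9% of 1.5-fold changes, 76.1% of 2-fold changes and 98.5% of 3-fold changes, and 9.93% of its calls were false. Changes were planted only in genes with a mean level well above the test minimum, so these shares do not cover members near that minimum. Alternatives were pseudocounts of 0.25 and 4, no minimum level, median-of-ratios rescaling, edgeR 4.0.16 (quasi-likelihood test on the recovered reads), a replicate block, the 6 compared libraries only and leaving out each library. Added after seeing the data was the removal of no stereotypy replicate 3 and control replicate 3 together, and a vascular marker sum without Tagln. Rescaling factors ran from 0.964 to 1.05.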

Additional observations from a re-analysis of the deposited data

Results flagged for a closer look

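Members that differed between the behaviours of TrkB-deleted mice, by the test of that difference itself (limma, 3 libraries each), were Dnajb4 at 0.49, Dnajb9 at 0.52 and Dnajc13 at 0.34, each higher in all 3 stereotypy than in all 3 no stereotypy libraries, and Dnajc30 at −0.36 and Cryab at −1.76, each lower in all 3 (log2 differences, adjusted p 0.0175, 0.0495, 0.0422, 0.0372 and 0.0206 in that order). That is 8.33% of the tested members, against 10.2% of all tested genes. Hspb2, which did not reach the minimum for testing, averaged 1.34 CPM in no stereotypy libraries, above the highest control library at 0.215 CPM. Reads in the exon it shares with Cryab on the other strand could not be assigned to either gene.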

How the results depend on the processing

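No difference of a named member changed its sign where it was called, and Cryab in no stereotypy against control kept its call in all 17 alternatives. The counts of members called were less stable, as was the share of all genes called, and the cause was not tested. In stereotypy against control (1 called), the fit to the 6 compared libraries gave 0 (2.38% of all genes called), leaving out single libraries gave 0 to 1, with 0 without stereotypy replicate 1, 2 or 3 or control replicate 3 (0.905% to 2.69% of all genes), and leaving out no stereotypy replicate 3 with control replicate 3 gave 0 (4.26%). In no stereotypy against control (2 called), rescaling, edgeR and the fit to compared libraries each gave 1 (6.60%, 6.60% and 4.15% of all genes), and single libraries left out gave 1 to 2 (2.31% to 6.83%). In stereotypy against no stereotypy (5 called), rescaling and edgeR gave 3 (10.1% and 9.75% of all genes), and single libraries left out gave 0 to 8, with 0 without stereotypy replicate 2 or 3 or no stereotypy replicate 1 or 2 (0% to 0.0073% of all genes), 2 without stereotypy replicate 1 (5.89%) and 8 without control replicate 2 (14.5%). In both groups against control (2 called), no minimum level and edgeR gave 0 (1.49% and 5.32% of all genes) and rescaling gave 1 (5.47%). Single libraries left out gave 0 to 2 there (2.9% to 5.3% of all genes), and the 1 call without control replicate 2 was Dnajb5, which was lower. With the replicate block, 4 members were called in no stereotypy against control, 1 in both groups against control, 7 between the behaviours and 1 in stereotypy against control, with 8.02%, 6.43%, 13.1% and 6.70% of all genes called. The labels do not say whether libraries of the same number share more than that number. Deviations of such pairs correlated at −0.08 to 0.41, with values below 0.1 in 5 of the 9 pairs. Pairs of different number ran from −0.42 to 0.25, and stereotypy replicate 2 correlated best with control replicate 3. Whether libraries of the same number share a batch was not tested. Depth limits the low members, and members under 1 CPM in 7 or more libraries were not tested.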
